A study of Mus musculus with 8 samples.

Results

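The genes described here are 10 mouse genes for mast cell proteases and receptors, out of 27179 genes in the deposited expression table. They are the chymases Mcpt1, Mcpt2, Mcpt4 and Cma1, the related protease Mcpt8, the tryptase Tpsb2, carboxypeptidase Cpa3, the growth factor receptor Kit, and the IgE receptor chains Fcer1a and Ms4a2. The genes were selected on the measured values of Mcpt2 in these same tumors, which were much higher in one group, so the difference in Mcpt2 is given as a description without a test, and nothing is supported with it.

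The cells were cxC26, a cachexia-inducing line of the mouse colon carcinoma C26, grown under the skin of male CD2F1 mice until the animals became cachectic. RNA-seq was done on 4 cxC26 scr tumors, from cells that carried CRISPR/Cas9 with a scrambled guide RNA and kept their Il6 gene, and on 4 cxC26 IL-6 KO s1 tumors, from a single subclone in which CRISPR/Cas9 had disrupted Il6. Both groups shared the host strain, the host sex, the site of the graft and the endpoint of cachexia. According to the study's methods, more knockout than scr cells were inoculated in its experiments and knockout tumors reached that endpoint later, so genotype, clone, inoculum and tumor age cannot be told apart. The host mice kept their own Il6. The labels do not say that each tumor came from a separate mouse, so p-values measure the spread between these tumors.

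Mast cells are tissue-resident cells of the immune system that store proteases, histamine and proteoglycan in granules and release them when antigen cross-links IgE on the receptor FcεRI. Their growth and survival depend on the receptor tyrosine kinase Kit and its ligand, stem cell factor. In mice, Mcpt1 and Mcpt2 are known mostly from mucosal mast cells, whereas Mcpt4, Cma1, Tpsb2 and Cpa3 are known from mast cells of connective tissue such as skin. Mcpt8 is in the same family, but it is best known as a product of basophils.

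Between 14158989 and 17048062 reads per tumor, with a median of 15384973, could be recovered from the deposited log2 values. Il6, the targeted gene, had 356, 326, 376 and 438 reads in the scr tumors and 64, 56, 86 and 59 reads in the knockout tumors. Of the 13262 genes with at least 1 CPM (reads scaled to library size) in at least 4 tumors, 2529 were higher in the knockout tumors by limma at an adjusted p under 0.05 and 2748 were lower, and the median log2 fold change over all tested genes was -0.003. Of 6 tested colon epithelial markers, 3 rose and 1 fell. Krt18, Cdh1 and Cdh17 rose 9.19-fold, 2.75-fold and 2.13-fold (limma, adjusted p = 3.02e-06, 0.00251 and 0.0193). Krt20 was high in both groups at a mean of 10.20 and 10.42 log2 CPM, whereas Krt19, Vil1 and Cdx1 were at or near 0. Cdx2 fell and was at 17 to 34 reads in the scr tumors and at 0 or 1 read in the knockout tumors. The first knockout tumor lay outside Dixon's 95% limit in its group for 6 of the 10 genes (Mcpt2, Mcpt4, Cpa3, Cma1, Tpsb2 and Fcer1a), so the fold change of each member is given with and without it.

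Of the 10 genes, 7 passed the filter on low values (Mcpt1, Mcpt2, Mcpt4, Cpa3, Cma1, Tpsb2 and Kit) and 3 did not (Mcpt8, Fcer1a and Ms4a2). Besides Mcpt2, 5 of the 6 others that passed were higher in the knockout tumors by limma and 0 were lower, against 19.1% of all tested genes called higher and 20.7% called lower. All 6 were higher without the first knockout tumor, against 18.3% of all tested genes. Knockout tumors all lay above scr tumors for 4 of the 6, against 17.8% of all tested genes. The contrast that chose the genes is the one counted, and the 3 genes under the filter had few reads, so nothing is read from this share. Since whole tumors were measured, more mast cells and more RNA per mast cell cannot be told apart.

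Mcpt2, a mucosal chymase, had 34, 41, 49 and 44 reads in the scr tumors and 167, 1239, 1148 and 1270 reads in the knockout tumors. Every knockout tumor was above every scr tumor, but the first held far fewer reads than its 3 group mates. The mean level was 1.43 ± 0.31 log2 CPM in scr and 5.62 ± 1.51 log2 CPM in knockout tumors (SD, n = 4 each). The fitted difference was 18.2-fold (95% interval 7.75 to 42.9), and it was 30.7-fold without the first knockout tumor. The RefSeq model of Mcpt2 on GRCm38 (chr14:56021584-56044635) runs across the neighbouring Mcpt9 gene. Mcpt9 itself had 5 reads over the scr tumors and 44 over the knockout tumors.

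Mcpt1 (chr14:56017964-56020391), the other mucosal chymase, was scarce, with 4, 23, 4 and 11 reads in the scr tumors and 11, 53, 35 and 21 reads in the knockout tumors. The groups overlapped, since the second scr tumor, at 0.54 log2 CPM, lay above the first knockout tumor at -0.50. Means were -0.86 ± 1.13 and 0.80 ± 1.03 log2 CPM (SD, n = 4 each), a log2 difference of 1.66 (95% interval 0.31 to 3.00) that did not pass the threshold (limma, adjusted p = 0.0505). Without the first knockout tumor, the log2 difference was 2.09 (limma, adjusted p = 0.0136), and without the second scr tumor it was 2.12 (limma, adjusted p = 0.0193). The call for Mcpt1 thus turned on which tumors were included.

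Mcpt4 (chr14:56059744-56062310), the main chymotrypsin-like chymase of connective tissue mast cells, had 45, 46, 29 and 34 reads in the scr tumors and 100, 449, 564 and 479 reads in the knockout tumors. The lowest knockout tumor was well clear of the highest scr tumor. The mean rose from 1.30 ± 0.22 to 4.46 ± 1.23 log2 CPM (SD, n = 4 each), or 8.99-fold (95% interval 4.44 to 18.2; limma, adjusted p = 0.00035). It was 13.7-fold without the first knockout tumor.

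Cma1 (chr14:55941451-55944675) is an alpha-chymase by sequence that cleaves like an elastase in rodents, and it is stored together with Cpa3. It was at 35, 36, 24 and 29 reads in the scr tumors and at 83, 444, 537 and 592 reads in the knockout tumors. The groups did not overlap. The mean was 1.00 ± 0.17 against 4.45 ± 1.40 log2 CPM (SD, n = 4 each), a rise of 11.0-fold (95% interval 4.96 to 24.3; limma, adjusted p = 0.000429), or 17.8-fold without the first knockout tumor.

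**Figure D1:**
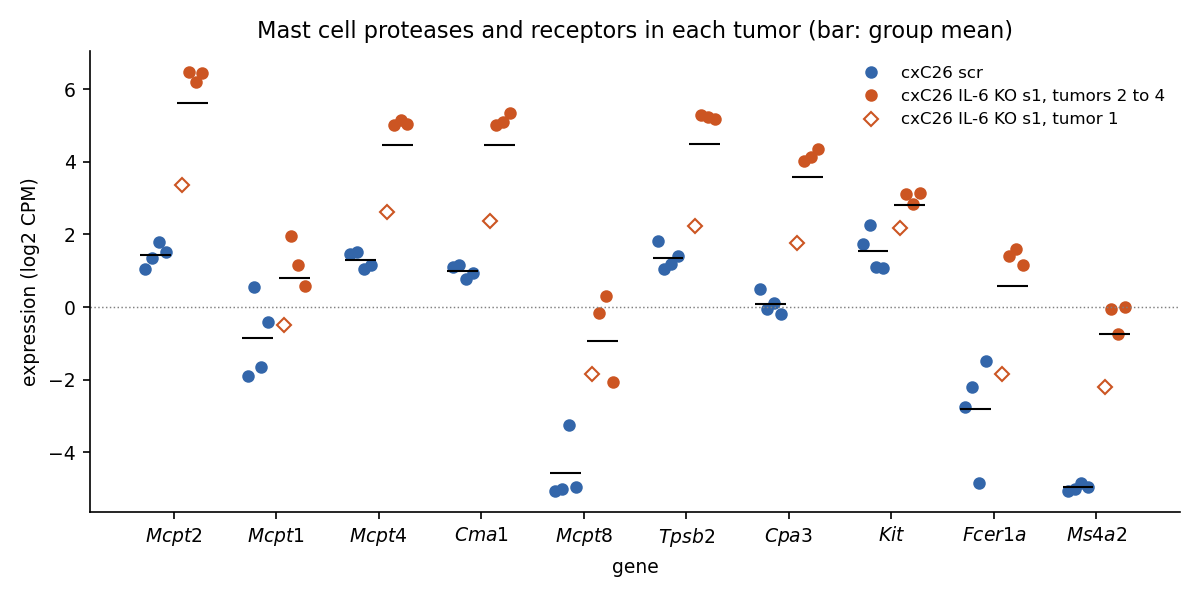
Expression of the 10 mast cell genes in log2 CPM (vertical axis) for each gene (horizontal axis), with one point per tumor, blue for the 4 cxC26 scr tumors and orange for the 4 knockout tumors (open diamond for the first); bars are group means. For Mcpt2 the scr tumors sit between 1.05 and 1.80 and knockout tumors 2 to 4 between 6.19 and 6.48, with the first knockout tumor between them at 3.37.

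Mcpt8 (chr14:56082163-56085499), the basophil protease of this family, was almost absent from the scr tumors, where 1 read was found in the third tumor and 0 in each of the others. The knockout tumors had 4, 12, 19 and 3 reads. All knockout tumors were above all scr tumors, at counts too low to pass the filter. Per read sequenced, the knockout tumors held 39.3 times as many Mcpt8 reads (95% interval 6.65 to 1590, for counting error only), or 48.2 times without the first.

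Mcpt1 and Mcpt4 are close relatives with similar sequence just upstream of their starts. The 150 bases before the start of each are printed with those of Cma1 and Cpa3, to show how far the upstream sequences of these granule proteases are alike. Capitals mark AGATAA or its relative AGATAG, and likewise TGATAA or its relative TGATAG, on either strand, the letters read by GATA factors, of which Gata2 is a mast cell regulator. All are from RefSeq on GRCm38.p6 and run 5′ to 3′ on the strand of the gene, at chr14:56017814-56017963 (plus) for Mcpt1, chr14:56062311-56062460 (minus) for Mcpt4, chr14:55944676-55944825 (minus) for Cma1 and chr3:20242182-20242331 (minus) for Cpa3. The start is that of the promoter table, which for Cpa3 lies inside the end of the gene span given below.
Mcpt1: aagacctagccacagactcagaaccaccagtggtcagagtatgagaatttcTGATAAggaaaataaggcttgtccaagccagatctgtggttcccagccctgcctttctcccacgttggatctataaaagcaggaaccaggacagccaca
Mcpt4: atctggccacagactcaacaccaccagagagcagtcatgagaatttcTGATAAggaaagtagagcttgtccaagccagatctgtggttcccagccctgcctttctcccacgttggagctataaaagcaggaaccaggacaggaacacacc
Cma1: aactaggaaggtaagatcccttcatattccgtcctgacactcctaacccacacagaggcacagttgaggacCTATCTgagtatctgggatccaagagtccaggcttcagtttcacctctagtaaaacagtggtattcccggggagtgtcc
Cpa3: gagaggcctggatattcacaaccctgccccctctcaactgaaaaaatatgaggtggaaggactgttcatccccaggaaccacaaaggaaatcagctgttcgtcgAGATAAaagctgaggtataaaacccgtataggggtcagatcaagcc

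In the 150 bases shown, Mcpt1 and Mcpt4 were identical at 131 of 146 aligned bases, and both carried TGATAA, at position -99 in Mcpt1 and at -103 in Mcpt4 counted from the start. Although their upstream sequences were 89.7% identical, the mean level in the knockout tumors was 24.2 CPM per kilobase of transcript for Mcpt4 and 2.01 for Mcpt1. Cma1 had the reverse of AGATAG at -79, and Cpa3 had AGATAA at -46. Over 250 bases upstream, 6 of the 8 members found in the promoter table held such a word (Mcpt1, Mcpt4, Cpa3, Cma1, Fcer1a and Ms4a2), while Kit and Mcpt8 held none. Across the table, 29.7% of 27025 genes held one. The search was chosen with the expression results known, and a match describes letters only.

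Tpsb2 (chr17:25366308-25368096), a tryptase that forms heparin-bound tetramers in the granule, had 58, 33, 32 and 40 reads in the scr tumors and 75, 536, 589 and 530 reads in the knockout tumors. Here the first knockout tumor stood only a little above the highest scr tumor, while the other 3 were close to each other. The mean rose from 1.36 ± 0.33 to 4.48 ± 1.51 log2 CPM (SD, n = 4 each), by 8.67-fold (95% interval 3.66 to 20.5; limma, adjusted p = 0.00129), or 14.6-fold without the first knockout tumor.

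Cpa3 (chr3:20215616-20242209), the metalloprotease carboxypeptidase of mast cell granules, was at 23, 15, 15 and 13 reads in the scr tumors and at 55, 226, 277 and 295 reads in the knockout tumors. The groups were separate. Means were 0.09 ± 0.30 and 3.57 ± 1.21 log2 CPM (SD, n = 4 each), an 11.2-fold rise (95% interval 5.42 to 23.0; limma, adjusted p = 0.000227), or 16.9-fold without the first knockout tumor. The library kit named in the labels does not mark strand, so reads of the genes that overlap Cpa3 (Gm31320, Mir7007 and Gm7428) cannot be told from its own.

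Kit (chr5:75574987-75656722), the receptor for stem cell factor, is also made by melanocytes, interstitial cells and blood progenitors. It had 55, 77, 30 and 32 reads in the scr tumors and 73, 120, 113 and 127 reads in the knockout tumors. The groups overlapped, since the first knockout tumor was below the second scr tumor. The mean rose from 1.54 ± 0.57 to 2.82 ± 0.45 log2 CPM (SD, n = 4 each), by 2.42-fold (95% interval 1.53 to 3.83; limma, adjusted p = 0.00601), and by 2.81-fold without the first knockout tumor. The interval for Kit lay below the intervals for Mcpt4, Cma1 and Cpa3, but overlapped those for Tpsb2 (3.66 to 20.5) and Mcpt1 (1.24 to 8.02). Of the markers of these other cells, Tyrp1 had 0 reads in all 8 tumors, which allows up to 3 reads per library, and Dct and Mlana had at most 3 reads per group. Pmel had 31 and 15 reads over the scr and knockout tumors, and Ano1 had 88 and 55. Etv1 was abundant at a mean of 7.40 and 7.04 log2 CPM and fell by 0.36 (limma, adjusted p = 0.015). Their summed level was 162 to 195 CPM in the scr tumors and 117 to 155 CPM in the knockout tumors, mostly Etv1, and their part in the result for Kit was not tested.

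Fcer1a (chr1:173221269-173227232), the IgE-binding alpha chain of FcεRI, had 2, 3, 0 and 5 reads in the scr tumors and 4, 36, 47 and 32 reads in the knockout tumors. The first knockout tumor lay within the scr range and the other 3 were above it. Over each group, 10 and 119 reads gave a ratio of 12.3 per read sequenced (95% interval 6.47 to 26.4, for counting error only), or 16.3 without the first knockout tumor.

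Ms4a2 (chr19:11615517-11623790), the signal-amplifying beta chain of the same receptor, had 0 reads in all 4 scr tumors and 3, 13, 9 and 14 reads in the knockout tumors. Set against a limit of 3 reads per scr library, it was at least 3.45-fold higher, and at least 4.28-fold higher without the first knockout tumor. Neither IgE receptor chain passed the filter. In a fit of all genes without a filter, both were past the threshold (limma, adjusted p = 0.0483 for Fcer1a and 0.00138 for Ms4a2). Mcpt8 was past it too (limma, adjusted p = 0.00831). With 0 scr reads, the scr values of Ms4a2 in that fit came only from the constant added to each read count. Mcpt8 had 1 scr read in all and Fcer1a had 10. The scr spread thus came wholly or partly from that constant, so nothing is read from these p-values.

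**Figure D2:**
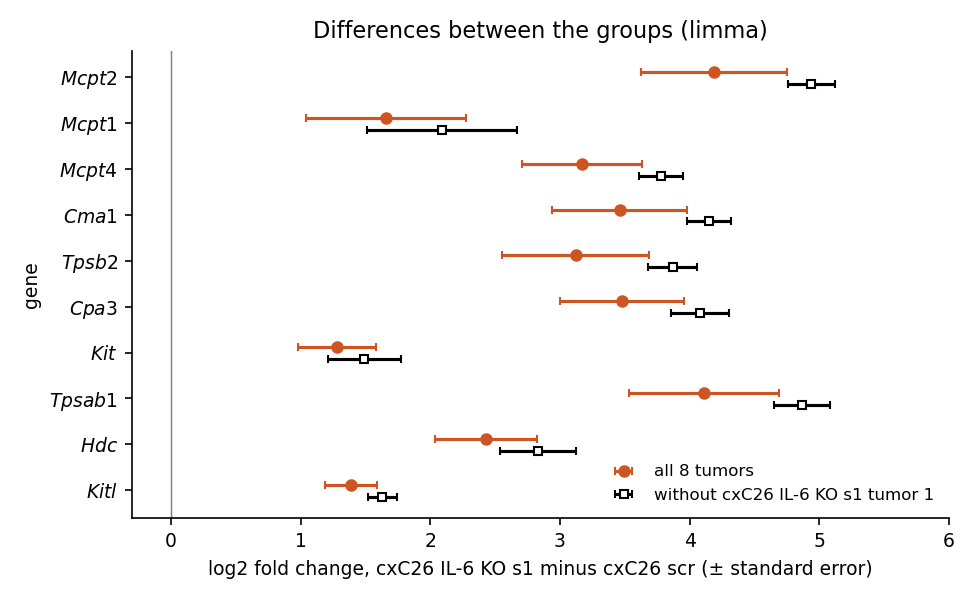
Log2 fold change of knockout over scr tumors (horizontal axis, with ± standard error) for the 7 tested members, Tpsab1, Hdc and Kitl (vertical axis), from all 8 tumors (filled) and without the first knockout tumor (open). All values are above 0, and Kit at 1.28 and Mcpt1 at 1.66 are the lowest of the members.

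The knockout tumors other than the first were alike in the summed level of the 10 genes. Together the genes took 15.3, 16.9, 12.9 and 13.5 CPM in the scr tumors and 35.4, 226, 212 and 232 CPM in the knockout tumors. Since Mcpt2 chose the genes, the sum without it is given too, at 13.3, 14.4, 9.49 and 10.7 CPM in the scr tumors and 25.1, 136, 139 and 144 CPM in the knockout tumors. Of the reads of the 9 genes other than Mcpt2, Kit gave 19.5% to 33.0% in the scr tumors, 17.9% in the first knockout tumor and 5.16% to 6.35% in the other 3. These are shares of reads, which also scale with transcript length.

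Per kilobase of transcript, Mcpt2 was the highest member in 4 of 4 knockout tumors, at a mean of 61.3 ± 35.1 CPM per kb (SD, n = 4). Cma1 at 25.7 ± 14.4, Mcpt4 at 24.2 ± 12.5 and Tpsb2 at 22.7 ± 12.8 CPM per kb followed and lay within each other's spread. Cpa3 was lower at 9.94 ± 5.2 CPM per kb. Mcpt1 and Fcer1a were both at 2.01 CPM per kb (SD 1.33 and 1.22), with Kit at 1.39 ± 0.38, Mcpt8 at 0.668 ± 0.516 and Ms4a2 at 0.278 ± 0.154 CPM per kb. In the scr tumors the order at the top was not settled, with Mcpt2 at 2.56 ± 0.556, Mcpt4 at 2.21 ± 0.347, Tpsb2 at 2.01 ± 0.492 and Cma1 at 1.81 ± 0.217 CPM per kb, and Mcpt2 was highest in 2 of the 4 scr tumors.

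Within a tumor, differences of log2 CPM between genes (not corrected for length) kept a similar range in both groups for some pairs and shifted for others. Cma1 minus Cpa3 was 0.60 to 1.24 log2 units in the scr tumors and 0.59 to 1.00 in the knockout tumors. Kit minus Cpa3 was 0.98 to 2.32 log2 units in the scr tumors and -1.29 to 0.41 in the knockout tumors.

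Long identical stretches, which could let reads of one protease be counted for another, were rare. No stretch of 100 bases of the Mcpt1, Mcpt2, Mcpt8, Cma1 or Tpsb2 transcripts was found in a relative in the annotation, and for Mcpt4 only 0.0991% of such stretches were shared, with Cma2. The transcripts of Mcpt1 and Mcpt4 were 85.2% identical over their aligned bases, those of Mcpt1 and Mcpt2 81.8%, and those of Mcpt2 and Mcpt4 78.7%. Mcpt9, in contrast, shared 10.6% of its stretches with a relative, and its 98.1% identity to Cma2 makes its reads uncertain.

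The profile closest to that of Mcpt2 over the 8 tumors, among 13261 other tested genes, was that of Tpsab1, a second tryptase gene. The root mean square difference of the mean-centred log2 CPM was 0.252 for Tpsab1, 0.482 for Cma1, 0.531 for Cpa3, 0.636 for Mcpt4 and 0.651 for Tpsb2, the 5 nearest genes. Of the other tested members, Mcpt1 ranked 140 and Kit 257. The list was chosen on Mcpt2 and these profiles share their libraries, so the ranks are a description only.

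Tpsab1 had 22, 27, 28 and 16 reads in the scr tumors and 86, 641, 664 and 610 reads in the knockout tumors. It rose by 4.11 on the log2 scale, or 17.3-fold (95% interval 7.19 to 41.5; limma, adjusted p = 0.000271), and by 29.2-fold without the first knockout tumor. The log2 CPM of Tpsab1 minus that of Tpsb2 in the same tumor, not corrected for length, was -1.38 to -0.19 in the scr tumors and 0.17 to 0.26 in the knockout tumors. RefSeq lists Tpsab1 as a transcribed pseudogene in the C57BL/6J reference, and its transcript shared no 100-base stretch with Tpsb2.

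Mcpt1, Mcpt2, Mcpt4, Mcpt8 and Cma1 lie in one protease cluster on chromosome 14, which also holds cathepsin G and most granzymes, the death-inducing proteases of cytotoxic lymphocytes. The 15 cluster genes in the table span 321 kb. Apart from Mcpt2, 8 were tested, with log2 fold changes of 1.04 to 3.46 and a median of 2.79, and 4 of them were called higher by limma (Cma1, Mcpt4, Gzmb and Gzme), beside the 19.1% of all tested genes. Within 1 Mb of the start of Mcpt2 on either side, 38 other genes were tested, of which 10 were higher and 1 lower, with a median of 0.20 and a range from -0.63 to 1.13. They are called flanking, though Gm5801, at 0.12, lies between Cma2 and Mcpt1. Every one of them changed less than Mcpt4 or Cma1. Mcpt-ps1, also inside the cluster but not counted in it, was below the filter, with 3 and 41 reads over the scr and knockout tumors.

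**Figure D3:**
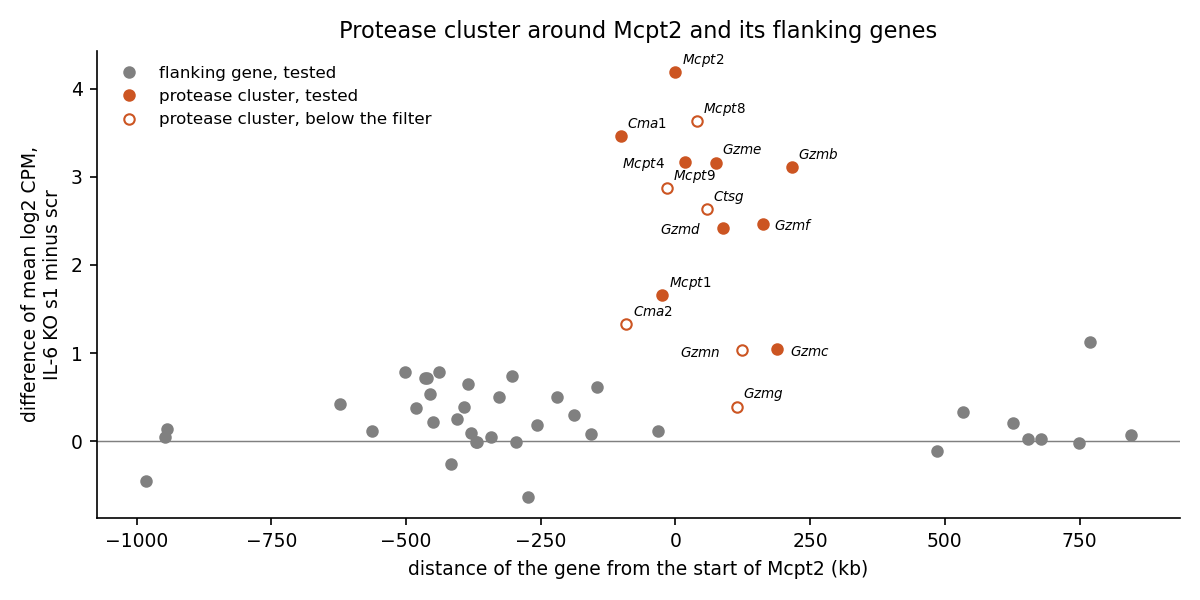
Difference of mean log2 CPM, knockout minus scr (vertical axis), against the distance of each gene from the GENCODE start of Mcpt2 in kb (horizontal axis), for protease cluster genes (orange, open where below the filter) and tested flanking genes (grey, with Gm5801 inside the cluster). Flanking genes lie between -0.63 and 1.13.

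Of the other cluster proteases, 5 of 10 in the table were tested and 2 rose, beside the 19.1% of all tested genes. Gzmb rose by 3.11 and Gzme by 3.16 on the log2 scale (limma, adjusted p = 0.000761 and 0.00446). Gzmd at 2.42, Gzmf at 2.47 and Gzmc at 1.04 log2 units were not called (limma, adjusted p = 0.0522, 0.229 and 0.569), and without the first knockout tumor they were at 1.71, 1.15 and -0.35. Cathepsin G (Ctsg) had 8 and 53 reads over the scr and knockout tumors, a ratio of 6.86 (95% interval 3.24 to 16.7, for counting error only).

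The granzymes differed from the mast cell proteases in which knockout tumor held most. The first knockout tumor had the lowest level of the 4 for 7 of the 7 tested members, against 26.7% of all tested genes, and the highest level for 5 of the 5 tested granzymes of the cluster, against 28.0% of all tested genes. In that tumor Mcpt2 and Tpsb2 were both at 12.4% of the mean of the other 3, Cma1 at 14.5%, Mcpt4 at 18.3% and Cpa3 at 18.9%. Kit was reduced less, at 55.2%. Gzmb was instead 1.36, Gzme 1.90 and Gzmd 2.84 log2 units above the mean of the other 3. What sets this tumor apart was not tested.

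**Figure D4:**
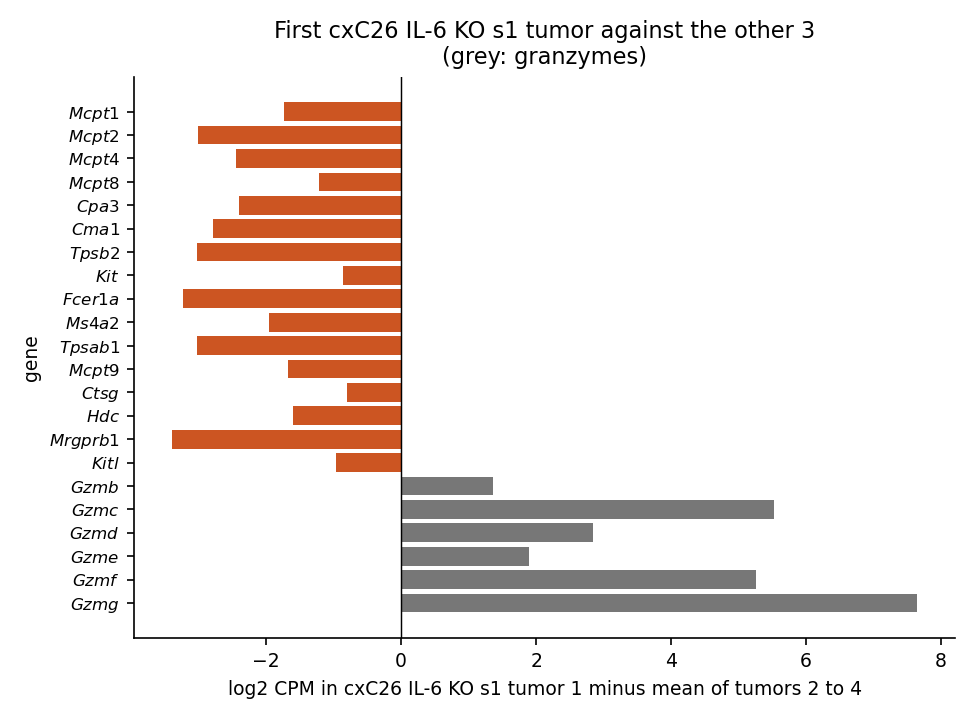
Log2 CPM in the first knockout tumor minus the mean of knockout tumors 2 to 4 (horizontal axis) for the members and other listed genes (orange) and granzymes (grey) on the vertical axis. Bars point left for the mast cell proteases, with Mcpt2 at -3.01, and right for the granzymes, with Gzmb at 1.36.

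The gamma chain of FcεRI, Fcer1g, and the kinases and adaptors downstream are shared with macrophages, natural killer cells and other leukocytes. Of 15 such genes, all were tested, 13 rose and 1 fell by limma, with a median log2 fold change of 1.20. Among all tested genes, 19.1% were called higher and 20.7% lower. Without the first knockout tumor 12 of the 15 rose, against 18.3% of all tested genes. Fcer1g rose by 1.32 and the kinases Btk, Syk and Lyn by 1.68, 0.84 and 0.83 on the log2 scale (limma, adjusted p = 6.84e-05, 0.000189, 0.00181 and 0.00244). The adaptor Lat rose by 1.52 (limma, adjusted p = 0.00176). It had passed the filter through the knockout tumors alone, so its call is a description only. The phospholipase Plcg1 fell by 0.92 (limma, adjusted p = 3.41e-05), and Gab2 was at 0.10 (limma, adjusted p = 0.549). In contrast to Fcer1a and Ms4a2, 14 of these 15 genes were highest of the knockout group in its first tumor, against 28.0% of all tested genes. Macrophage markers moved with them: 5 of 6 rose and 1 fell, and their summed level was 320 to 386 CPM in the scr tumors and 555 to 1100 CPM in the knockout tumors, highest in the first. The part of macrophages in the signalling genes was not tested.

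Stem cell factor (Kitl), the ligand of Kit, had 251, 272, 232 and 245 reads in the scr tumors and 411, 625, 760 and 816 reads in the knockout tumors. The groups did not overlap, and the first knockout tumor was again the lowest of its group. Kitl rose 2.62-fold (95% interval 1.93 to 3.56; limma, adjusted p = 0.00033), and 3.10-fold without that tumor. Of 10 tested growth factors and receptors for mast cells, 2 rose (Kitl and Il10ra) and 3 fell (Il33, Tgfb1 and Il3ra). The shares over all tested genes were 19.1% called higher and 20.7% called lower. Il33, an alarmin that activates mast cells, fell by 2.00 on the log2 scale and Tgfb1, which induces mucosal chymases in culture, by 0.53 (limma, adjusted p = 6.48e-07 and 0.0102). The IL-33 receptor gene Il1rl1 was abundant at a mean of 11.05 and 11.01 log2 CPM, with a log2 difference of -0.05 (limma, adjusted p = 0.862). Il9, the cytokine of mucosal mast cell growth, had 0 reads in all 8 tumors, which allows up to 3 reads per library.

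Between the groups, histamine and lipid mediator genes leaned the same way as the proteases. Hdc, which makes histamine, had 24, 33, 14 and 13 reads in the scr tumors and 48, 133, 148 and 121 reads in the knockout tumors, and rose 5.38-fold (95% interval 2.95 to 9.81; limma, adjusted p = 0.000675), or 7.11-fold without the first knockout tumor. Of 11 tested granule and mediator genes, 8 rose and 0 fell, with a median log2 fold change of 0.83. Of all tested genes, 19.1% were called higher and 20.7% lower. Unlike the proteases, 3 of the 11 were lowest of their group in the first knockout tumor, near the 26.7% of all tested genes. In that tumor 4 were highest, Srgn and Alox5ap among them, against 28.0% of all tested genes. The leukotriene genes Ltc4s, Alox5 and Alox5ap rose by 1.97, 1.96 and 1.17, the granule proteoglycan Srgn by 1.06 and the granule monoamine transporter Slc18a2 by 0.75 on the log2 scale (limma, adjusted p = 7.34e-05, 0.00235, 0.000199, 0.00306 and 0.00278). The mast cell receptor Mrgprb2 had 2 and 69 reads over the scr and knockout tumors, a ratio of 35.7 (95% interval 9.52 to 301, for counting error only). Its relative Mrgprb1 had 25 and 224 reads, a ratio of 9.28 (6.12 to 14.6).

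The lineage transcription factors did not share one direction. Of 9 tested, 3 rose and 2 fell, with a median log2 fold change of -0.05, beside 19.1% and 20.7% of all tested genes. Gata2 rose by 0.42, Lmo2 by 0.86 and Spi1, a factor of macrophages and mast cells alike, by 1.48 on the log2 scale (limma, adjusted p = 0.0095, 0.00208 and 9.17e-05). Mitf fell by 0.75 and Tal1 by 1.95 (limma, adjusted p = 0.001 and 1.77e-05).

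Inhibitors of chymase, cathepsin G or granzymes were tested for 8 genes, of which 6 rose and 0 fell. Over all tested genes, 19.1% were called higher and 20.7% lower. Serpinb1a rose by 2.64, Serpinb9b by 2.78 and Serpinb6a by 1.07 on the log2 scale (limma, adjusted p = 4.65e-06, 7.63e-05 and 3.78e-06). Serpinb9b had passed the filter through the knockout tumors alone, so its call is a description only. Slpi rose 14.2-fold (limma, adjusted p = 0.0041), a call lost with voom weights (limma, adjusted p = 0.0569), and 7.58-fold without the first knockout tumor, which held 2093 of the 2710 knockout reads.

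**Figure D5:**
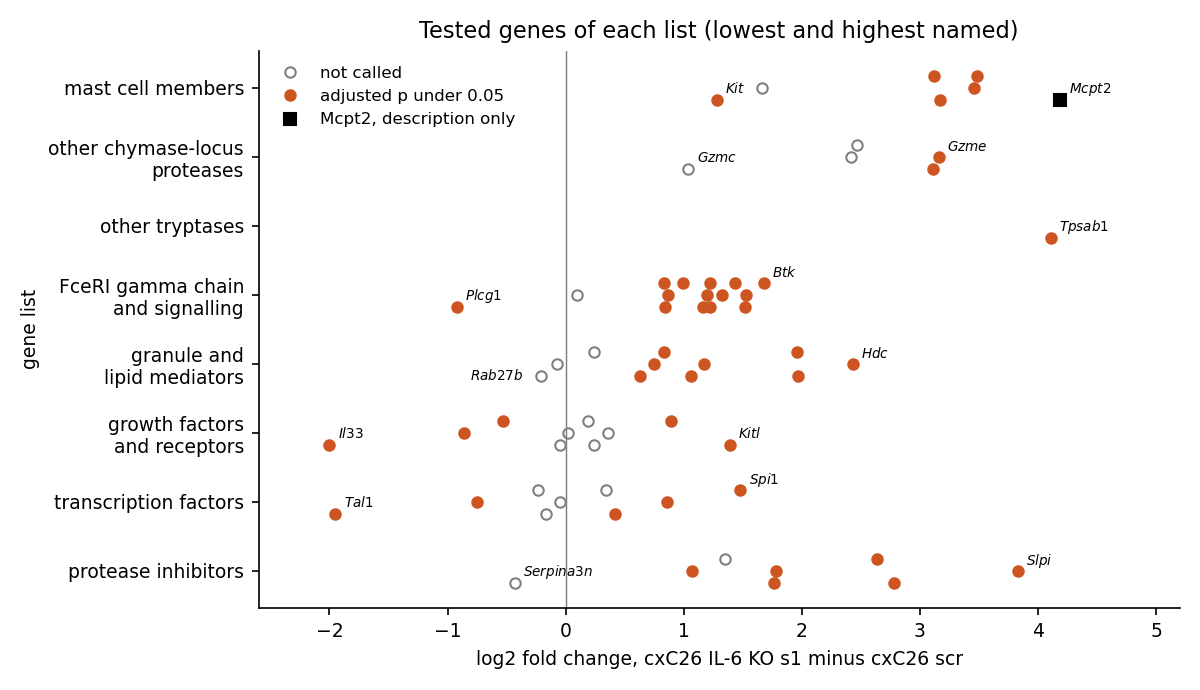
Log2 fold change of knockout over scr tumors (horizontal axis) for the tested genes of each list (vertical axis), filled where the limma adjusted p was under 0.05 and open otherwise (black square for Mcpt2, not tested), with the lowest and highest gene of each list named. Members lie between 1.28 and 4.19, and the growth factor list runs from -2.0 for Il33 to 1.39 for Kitl.

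Other cells that could hold the same transcripts were looked at through their own markers. Of the basophil markers, Mcpt8 went from 1 to 38 reads as given above, Prss34 had 1 read in all, Itga2 and Il3ra fell, and the list's summed level was 52.1 to 56.9 CPM in the scr tumors and 36.4 to 53.7 CPM in the knockout tumors. Most of that sum was Cebpa, Itga2 and Il3ra (1573, 974 and 893 reads over the scr tumors, 1940, 163 and 492 over the knockout tumors). The sum thus says little about Mcpt8 or Cd200r3. Cd200r3, found on basophils and mast cells, had 7 and 54 reads over the groups, a ratio of 7.99 (95% interval 3.62 to 20.8, for counting error only). Eosinophil markers summed to 0 to 2.04 CPM in the scr tumors and 2.24 to 3.57 CPM in the knockout tumors, with Epx at 1 read in all. Over the scr and knockout tumors, Prg2 had 10 and 12 reads, Siglecf 13 and 8, and Il5ra 6 and 3. Ear2 had 2 and 10 reads and Ear6 2 and 1. The higher sum in the knockout tumors thus came mostly from Ccr3. Ccr3, the one tested gene of that list, went from 10 to 150 reads and was 18.5-fold higher (limma, adjusted p = 0.00046), but it had passed the filter through the knockout tumors alone. Of 8 cytotoxic cell markers, Gzmb among them, 6 passed the filter, 4 of these through the knockout tumors alone. Their list summed to 0.910 to 5.68 CPM in the scr tumors and 14.7 to 50.5 CPM in the knockout tumors, highest in the first.

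Host skin and muscle around the graft also hold mast cells. Keratinocyte markers summed to 11.3 to 25.8 CPM in the scr tumors and 9.23 to 14.1 CPM in the knockout tumors, and adipocyte markers to 142 to 205 and 123 to 247 CPM, so that both lists overlapped between the groups. The keratinocyte sum was mostly Krt10, with 880 and 681 reads over the scr and knockout tumors. Krt5, Krt14, Lor and Krt1 had 59, 28, 20 and 11 reads in the first scr tumor. In every other tumor each had at most 3 reads. Skeletal muscle markers varied widely, from 7.99 to 155 CPM in the scr tumors and from 22.6 to 322 CPM in the knockout tumors. The first knockout tumor was the lowest of its group for 6 of the 6 muscle genes, against 26.7% of all tested genes. It was also lowest for the mast cell proteases, and the part of surrounding muscle in their levels was not tested.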

How the data were processed

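RNA-seq libraries of 8 subcutaneous tumors were made from poly(A)-selected RNA with a kit that does not mark strand, per the labels. The study's methods and the submitters' processing notes name bcl2fastq 2.17, Trimmomatic, HISAT2 on mm10 (GRCm38), featureCounts and limma-voom. The authors deposited voom's log2 CPM, that is log2 of CPM with 0.5 added to each read count and 1 to the library size. Reads were recovered from them, and 100.0% of values were whole within 0.01 read; the table holds 0 other value columns, and 1319 rows without a symbol stayed in the fit. Recovered reads were used for printing and for voom weights only.

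Genes that reached 1 CPM in 4 or more of the 8 tumors were tested with limma 3.58.1 (R 4.3.3; trended eBayes, Benjamini-Hochberg over 13262 genes, threshold 0.05), after a test on simulated data. No block was used. Genes below that filter have exact read ratios (scipy 1.17.1), whose 95% intervals cover counting error only. Lists are given by counts and medians. Nearness to Mcpt2 used mean-centred log2 CPM. The positions printed with the genes and the promoters are from RefSeq GRCm38.p6, where 8 of 10 members had a promoter. Transcripts are from GENCODE and were aligned with Biopython 1.88. The span of the protease cluster, the window around it and distances from Mcpt2 also use GENCODE positions, where Mcpt2 starts at chr14:56042041. All 10 members, Il6, list genes and the 5 nearest profiles could be named. The members and lists were chosen with earlier results of these data known. Alternatives were no filter, a stricter filter (mean log2 CPM of 3 or more), quantile scaling, log2(CPM + 1), voom weights, a replicate block and leaving out each tumor.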

Additional observations from a re-analysis of the deposited data

Results flagged for a closer look

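In groups of 4 tumors, a value was singled out where its gap to the nearest other tumor exceeded Dixon's 95% limit relative to the group's range. Of 136 groups looked at, 16 had such a value, where chance gives about 1 in 20, and 12 of the 16 were in the first knockout tumor.

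In that tumor, Mcpt2 was at 3.37 log2 CPM (6.19 to 6.48 in the other 3), Mcpt4 at 2.63 (5.02 to 5.16), Cma1 at 2.36 (5.0 to 5.35), Tpsb2 at 2.22 (5.19 to 5.28) and Cpa3 at 1.77 (4.03 to 4.35). Fcer1a was at -1.85 log2 CPM (1.17 to 1.59 in the other 3), Tpsab1 at 2.41 (5.40 to 5.53), Hdc at 1.58 (3.07 to 3.27) and Il1rl1 at 10.42 (11.17 to 11.26). Above the other 3 knockout tumors were Gzme at 3.88 log2 CPM (1.92 to 2.09), Csf2rb at 5.44 (4.53 to 4.59) and Serpina3g at 6.39 (2.39 to 3.06).

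In the first scr tumor, Tgfb1 at 6.85 log2 CPM (6.37 to 6.42 in the other 3) and Alox5ap at 3.76 (3.19 to 3.25) were high and Hpgds at 3.09 (3.44 to 3.50) was low. In the second scr tumor, Serpinb6b was high at 1.55 log2 CPM (0.84 to 0.96 in the other 3).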

How the results depend on the processing

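Of 807 log2 fold changes of members and listed genes recomputed under the alternatives, 785 kept their direction and their side of the threshold, 6 passed the threshold only under the alternative, 13 missed it and 3 changed sign. The number of members other than Mcpt2 called higher, 5, rose to 8 of 9 with no filter and was 5 to 6 when each tumor was left out. The calls added with no filter were Mcpt8, Fcer1a and Ms4a2, which had few or no scr reads. No share of all genes stands beside that count, so nothing is read from it. No member other than Mcpt2 reached a mean of 3 log2 CPM, so the stricter filter gave no value. Leaving out each tumor gave Gzmc log2 fold changes of -0.35 to 2.20, negative without the first knockout tumor (limma, adjusted p = 0.808), and Il1rl1 values of -0.13 to 0.15, positive at 0.03 without the first scr tumor and at 0.15 without the first knockout tumor (limma, adjusted p = 0.929 and 0.406); the cause was not tested.

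The replicate numbers do not pair the tumors: deviations of same-numbered tumors correlated at -0.0593 to 0.057 across genes. With a replicate block, 2477 genes were higher and 2688 lower, and 6 members other than Mcpt2 were higher, Mcpt1 among them at 1.66 (limma, adjusted p = 0.0127).

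Depth limits Mcpt8, Fcer1a and Ms4a2, which had few or no reads in the scr tumors, and for which fold sizes are wide or a lower bound. With 4 tumors a group, one knockout clone and one tumor that stood apart, the fold sizes of the proteases depend on that tumor.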
